A study of Mus musculus with 16 samples.

Results

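Semaphorins, plexins, neuropilins, ephrins and Eph receptors were followed in oligodendrocytes of juvenile mice whose mothers drank bisphenol A (BPA) or not. The 54 genes were taken by symbol from the 32207 genes of the deposited table: Nrp1, Nrp2 and every symbol that begins with Sema, Plxn, Efna, Efnb, Epha or Ephb followed by a digit, or for Plxn by a letter and a digit. They are 20 semaphorins, 10 plexin entries, 2 neuropilins, 8 ephrins and 14 Eph receptors. One plexin entry, Plxna4os1, is an antisense transcript and not a plexin. RNA was sequenced from O4-positive cells, which anti-O4 magnetic sorting took from brains of OF-1 mice at postnatal day 16. Control pups and BPA pups of each sex gave 4 libraries, so there were 4 groups of 4. BPA, a monomer of polycarbonate plastics that binds estrogen receptors weakly, was in the dams' drinking water from gestational day 7 and through lactation, so pups met it in utero and while suckling. The dose is labelled as an estimated 40 µg/kg/day from 250 µg/mL in the water. These figures fit together only at a very low water intake, so the scale of the dose was not settled. The labels name no transgene or mutation in any group. Neither litter nor batch is labelled, and littermates share their exposure, so p-values for BPA may be too small.

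Semaphorins are secreted or membrane-bound guidance proteins that act on plexins, and class 3 semaphorins do so mostly with a neuropilin as co-receptor. Plexins carry a GTPase-activating domain and change the cytoskeleton of the cell that receives the signal. Ephrins are bound to the membrane, by a lipid anchor in the A class and a transmembrane domain in the B class, and bind Eph receptor tyrosine kinases on touching cells, with signals into both cells. In the oligodendrocyte lineage these families are known for guiding precursor migration, for steering process outgrowth and for contact between myelinating cells and axons.

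Of the cell type marker lists, that of myelinating oligodendrocytes had the highest mean in the sort. In controls Mbp, the myelin basic protein gene, had 18089 ± 1489 CPM (SD, n = 8). CPM are counts per 1000000 of the scaled library total. Gfap, an astrocyte filament gene, was at 53.4 ± 19.1 CPM and P2ry12, a microglial receptor gene, at 162 ± 87.3 CPM in the same libraries, so transcripts of other cell types were detected too. As list means in log2 CPM, astrocyte genes were at 6.64 in male and 6.74 in female controls. That was above the oligodendrocyte precursor list, at 6.27 and 6.05, and below the myelinating list, at 11.08 and 11.07. In such bulk samples, fewer cells of a type and less RNA per cell cannot be told apart. Total counts ranged from 23603816 to 42575326 per library, and 3 counts, the most that a gene with 0 counts could reach by counting error alone, came to between 0.0707 and 0.127 CPM. Genes expressed from the sex chromosomes matched the labelled sex in 16 of 16 libraries. Male BPA 2 stood apart, with an astrocyte list mean of 8.52 on the log2 CPM scale, against 5.77 to 7.22 in the other libraries, and chi-square per gene of 89.0, 107 and 133 against its group, where other pairs within a group had 16.5 to 33.2. Female BPA 1 had the highest microglia list mean, 6.62.

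Of the 54 genes, 50 passed the filter on low counts. The other 4, Sema3a, Plxna4os1, Epha6 and Epha8, did not pass it, and Epha6 was close to absent, with at most 0.71 normalised counts per kb in a control. Levels between genes were compared as the authors' normalised counts per kb of transcript. Sema4d, a transmembrane semaphorin, was the highest of all, at 125436 ± 5098 (SD, n = 8 controls, range 116290 to 132738). Efnb3, a transmembrane ephrin, followed at 10727 ± 652, Sema6a at 9172 ± 725, Ephb1, an Eph receptor of the B class, at 8451 ± 439, and Plxnb1, a receptor for Sema4d, at 8354 ± 998. From Efnb3 to Plxnb1 the range of each gene overlapped that of the next, so neighbours in this stretch were not ordered, while every Efnb3 control lay above every Ephb1 control. Plxnb3, a plexin known from the oligodendrocyte lineage, stood at 6095 ± 275, Sema5a at 5518 ± 373 and Sema4a at 5185 ± 521, again with overlapping ranges.

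Lower in the order, Plxnb2 was at 2090 ± 402, Epha4 at 733 ± 80.3, Efna2 at 501 ± 53.2 and Ephb6, an Eph receptor without kinase activity, at 380.3 ± 35.1 normalised counts per kb. The neuropilins were low, Nrp1 at 86.9 ± 30.2 and Nrp2 at 53.5 ± 7.06. The lengths behind these levels are medians over all annotated transcripts of a gene, and in 54 of 54 genes the deposited length equalled the GENCODE M21 median. Short annotated fragments make some of them small: 0.571 kb for Sema4d and 0.731 kb for Plxnb1, whose longest transcripts have 4.482 and 8.649 kb. Divided by the longest transcript instead, an alternative chosen after seeing the data, Sema4d was still first at 467 ± 18.3 CPM per kb and Efnb3 second at 314 ± 19.2. Plxnb1 went from place 5 to place 13 and Plxnb2 from place 10 to place 20, while Plxnb3 went from place 6 to place 3, at 149 ± 6.56 CPM per kb. By the deposited length Plxnb1 had the highest mean of the plexins, and by the longest transcript Plxnb3.

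**Figure D1:**
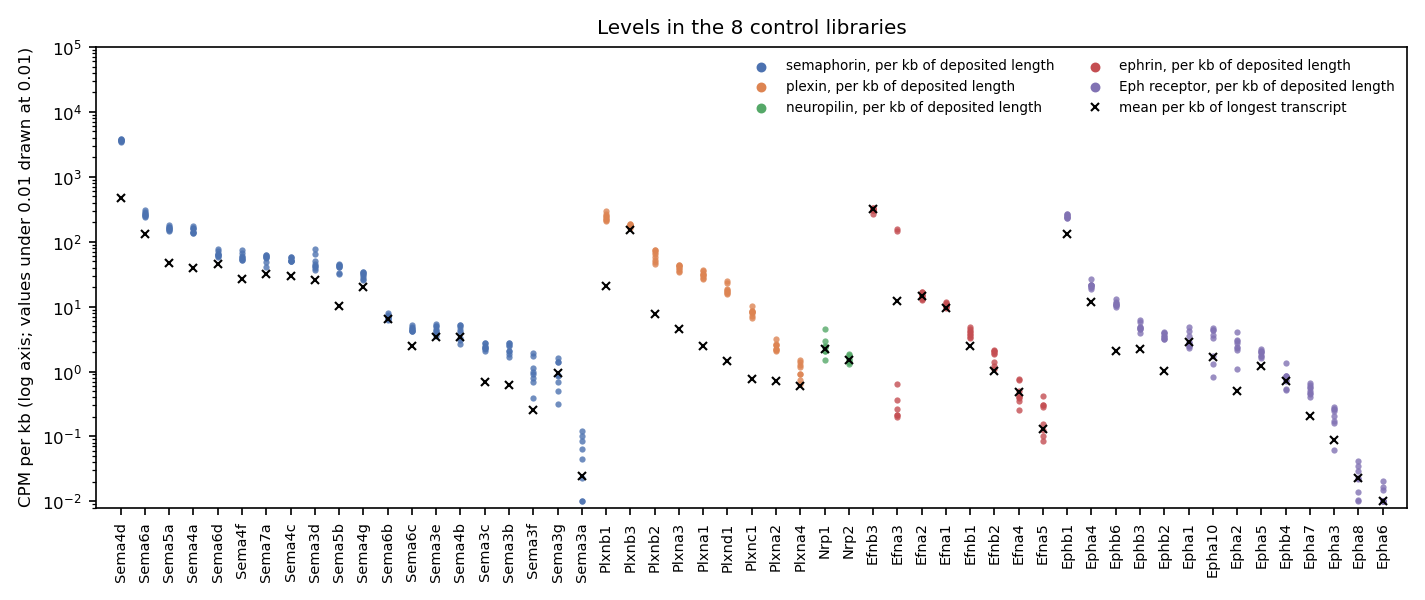
Level of each gene in the 8 control libraries, as CPM per kb of the deposited transcript length on a log axis (1 dot per library, coloured by family), with the mean per kb of the longest annotated transcript as a cross. Sema4d lies highest by either length, and Efna3 splits into 2 libraries far above the other 6.

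In the comparison of BPA with control over both sexes, no gene of these families passed the threshold. limma-voom, with Benjamini-Hochberg adjustment over 16339 genes, called 0 of the 50 tested members at an adjusted p under 0.05, where it called 3 genes in all (0.0184%). At an unadjusted p under 0.05 there were 8 of 50 members, against 7.69% of all tested genes. All 8 were lower in BPA, where 4.46% of all genes were lower at that p. They were 7 of the 19 tested semaphorins, Sema3e, Sema4d, Sema6d, Sema6a, Sema5a, Sema4a and Sema4f, and 1 of 8 ephrins, Efna1. None of 9 tested plexins, 2 neuropilins and 12 tested Eph receptors had such a p. Over the 50 members the median log2 fold change was -0.02, and over all tested genes 0.00. The members' median rested on single libraries. It was -0.07 without male BPA 2 (37 of 50 lower, against 29 with it). It was above 0 without male BPA 4 (0.03), male BPA 3 (0.02), male control 2 (0.01) or female control 4 (0.01). Over all tested genes the median was -0.006 without male BPA 2 and 0.013 without male BPA 4. With all libraries, 48.8% of all tested genes were lower. The median with all libraries was -0.05 in semaphorins, 0.06 in plexins, -0.07 in ephrins and 0.01 in Eph receptors. Of the lineage lists, committed and newly formed oligodendrocyte genes were lower in BPA in 13 of 14 cases (median -0.13), 6 of them at an unadjusted p under 0.05. Markers of other cells also differed in direction. In BPA, 15 of 15 microglia genes (median 0.23) and 10 of 11 mural and fibroblast genes (0.36) were higher. So were 10 of 11 ependymal and choroid plexus genes (0.39) and 10 of 12 astrocyte genes (0.15). Neuron genes were lower in 8 of 10 cases (median -0.08) and endothelial genes in 6 of 11 (-0.002). In these lists 0 genes were called, and their part in the members' values was not tested. For 37 of the 50 members the 95% confidence interval lay within a 1.5-fold change in either direction, as it did for 12094 of all 16339 tested genes.

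Sema3e, a secreted semaphorin that binds Plxnd1 directly, had the smallest p. Male controls had 23.5, 20.6, 25.8 and 21.96 CPM (replicates 1 to 4) and BPA males 16.9, 16.5, 19.1 and 18.8 CPM. Female controls had 18.2, 28.5, 22.3 and 26.6 CPM and BPA females 18.1, 20.3, 19.4 and 17.7 CPM. Every BPA male thus lay below every control male, while female control 1 lay among the BPA females. The log2 fold change over both sexes was -0.35 ± 0.09 (SE), with a limma-voom adjusted p of 0.259. Its receptor gene Plxnd1 had 0.29 ± 0.18, with an interval from -0.10 to 0.68.

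Efna1, a lipid-anchored ephrin that binds EphA receptors, had 14.9, 14.2, 14.3 and 16.7 CPM in male controls and 12.1, 10.2, 14.4 and 15.03 CPM in BPA males. Female controls had 16.0, 15.1, 17.5 and 15.7 CPM, and BPA females 11.5, 11.6, 13.1 and 14.3 CPM. The 4 BPA females lay below the 4 control females, and the male groups overlapped. The log2 fold change over both sexes was -0.31 ± 0.08 (limma-voom adjusted p 0.270).

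Sema4d had 2125, 2047, 2161 and 2201 CPM in male controls and 1891, 1617, 2069 and 1922 CPM in BPA males. It had 1939, 2136, 2051 and 2088 CPM in female controls and 1739, 1914, 1835 and 1799 CPM in BPA females. Of the 8 BPA libraries, 7 lay below the lowest control, and male BPA 3 was the exception. The difference was small, a log2 fold change of -0.18 ± 0.05 or 0.882-fold (limma-voom adjusted p 0.285), in the most abundant transcript of these families.

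The other lower semaphorins are transmembrane proteins, and their groups overlapped more. Sema6d had 267 to 345 CPM in male controls, 184 to 287 in BPA males, 261 to 321 in female controls and 232 to 268 in BPA females (log2 fold change -0.24 ± 0.08, limma-voom adjusted p 0.466). Sema6a, which is known to act through A plexins, had 799 to 1022 CPM over the 8 controls (median 872) and 723 to 867 over the 8 BPA libraries (median 816). Its log2 fold change was -0.15 ± 0.05 (limma-voom adjusted p 0.481). For Sema5a the values were 463 to 566 CPM (median 503) and 393 to 575 (median 436), with -0.18 ± 0.06. Female BPA 2 held the highest Sema5a value of all 16 libraries. Sema4a had 114 to 148 CPM in controls and 85.8 to 143 in BPA libraries (-0.22 ± 0.09), and Sema4f 94.7 to 135 and 83.5 to 114 (-0.21 ± 0.09). The limma-voom adjusted p of these 3 lay between 0.492 and 0.553.

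**Figure D2:**
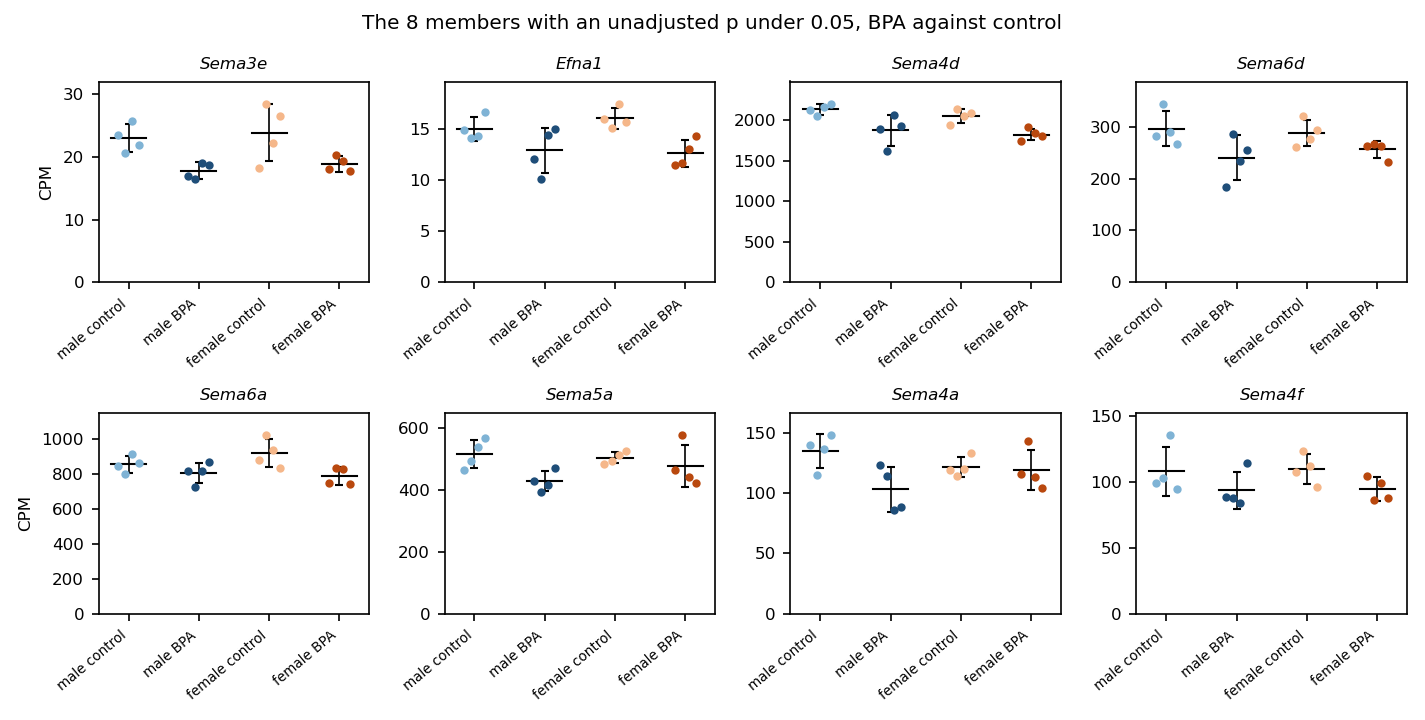
CPM of the 8 genes with an unadjusted p under 0.05 in BPA against control, by group (dots: libraries; line and bar: mean and SD, n = 4; each axis starts at 0). Group means are lower in BPA in both sexes for all 8, and the groups separate fully only for Sema3e in males and for Efna1 and Sema4d in females.

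No member had all 8 BPA libraries on one side of all 8 controls, which 9 tested genes did below and 5 above. Within males, 2 members had the 4 BPA libraries below the 4 controls, Sema3e and Sema5b, where 2.83% of all tested genes did. Within females they were Efna1 and Sema4d, where 2.06% of all genes did. No member had its BPA libraries above its controls in either sex, where 265 of 16339 tested genes did in males and 208 in females.

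The promoter windows of Sema3e and Efna1 are shown because these genes had the smallest p-values. The windows are from RefSeq (build GRCm38.p6), 300 bases around an annotated start, and 47 of the 54 members had an entry. They are chr5:14025026-14025325 on the plus strand for Sema3e, and chr3:89280902-89281201 and chr3:89279596-89279895 on the minus strand for the 2 Efna1 starts. Capitals mark matches, on either strand, to the GC box GGGCGG, the TATA box TATAAA, the SOX motif ACAAAG, the E-box CAGCTG or the nuclear receptor half-site AGGTCA, none of which contains another. In the Sema3e and Efna1 windows only GC boxes were matched.
Sema3e: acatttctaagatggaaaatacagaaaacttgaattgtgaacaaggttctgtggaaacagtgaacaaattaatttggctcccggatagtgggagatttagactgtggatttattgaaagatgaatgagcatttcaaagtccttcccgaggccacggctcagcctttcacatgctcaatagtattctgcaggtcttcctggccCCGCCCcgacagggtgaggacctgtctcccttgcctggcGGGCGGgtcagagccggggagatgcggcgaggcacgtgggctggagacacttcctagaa
Efna1 start 1: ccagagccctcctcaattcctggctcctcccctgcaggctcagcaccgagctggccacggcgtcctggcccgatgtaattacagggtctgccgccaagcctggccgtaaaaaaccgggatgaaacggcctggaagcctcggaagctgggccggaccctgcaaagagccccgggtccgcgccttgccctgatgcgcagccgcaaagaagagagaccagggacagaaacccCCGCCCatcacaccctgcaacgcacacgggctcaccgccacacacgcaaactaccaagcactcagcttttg
Efna1 start 2: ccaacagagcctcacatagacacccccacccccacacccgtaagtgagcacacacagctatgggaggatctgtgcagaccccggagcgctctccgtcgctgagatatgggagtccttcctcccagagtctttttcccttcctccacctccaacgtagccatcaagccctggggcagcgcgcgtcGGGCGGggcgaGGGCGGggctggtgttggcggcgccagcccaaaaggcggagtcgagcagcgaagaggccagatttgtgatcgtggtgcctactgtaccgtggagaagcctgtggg
A GC box was found in 35.7% of all 32851 promoter windows of the table, a TATA box in 13.6%, the SOX motif in 18.7%, the E-box in 16.3% and the half-site in 16.3%. The Efna1 windows were 63.7% and 63.3% G or C with 20 CpG dinucleotides each, and the Sema3e window 50.7% with 11. The 3 windows of Sema4d, not shown, had 51.0% to 56.0% G or C and 2 or 3 CpG dinucleotides. Start 1 had no match, start 2 had 1 E-box and 1 half-site, and start 3 had 1 GC box. A match is a description of these letters only.

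In males alone, limma-voom called 0 of 50 members and 1 gene in all (0.00612%), and 8 members had an unadjusted p under 0.05 (7.96% of all genes), each of them lower in BPA (4.8% of all genes). They were 6 semaphorins, Plxnb3 and Efna1. Sema4a had 139, 115, 136 and 148 CPM in male controls and 124, 114, 85.8 and 88.5 CPM in BPA males, which came to -0.40 ± 0.12 on the log2 scale (limma-voom adjusted p 0.440). Sema5b, a transmembrane semaphorin, had 52.3, 46.8, 47.2 and 50.6 CPM against 35.7, 42.5, 32.5 and 44.4 CPM, or -0.35 ± 0.13. Sema5a went from 463, 494, 537 and 566 CPM to 429, 393, 416 and 471 CPM, or -0.27 ± 0.09. Plxnb3 was at 940.1 ± 30.3 CPM in male controls and 841 ± 74.8 in BPA males (SD, n = 4), or -0.16 ± 0.07. The male groups were apart for Sema5b and overlapped for Sema4a, Sema5a and Plxnb3.

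The male groups also differed in lineage markers. The oligodendrocyte precursor list was lower in BPA males in 14 of 15 genes (median log2 fold change -0.31), and its mean ranged from 6.10 to 6.52 log2 CPM in male controls and from 5.80 to 6.05 in BPA males. Committed and newly formed oligodendrocyte genes were lower in 12 of 14 cases (median -0.27, means from 8.49 to 8.80 against 8.20 to 8.44). The myelinating list was higher in 16 of 18 (median 0.09). No gene of these lists was called, and the part of lineage makeup in the lower semaphorins was not tested.

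In females alone, limma-voom called 0 members and 0 genes (0%), and 5 members had an unadjusted p under 0.05 (4.55% of all genes). Of these, 4 were lower in BPA, where 2.41% of all genes were. The lower ones were Efna1 (log2 fold change -0.36 ± 0.11), Sema3e (-0.32 ± 0.12), Sema6a (-0.22 ± 0.08) and Sema4d (-0.17 ± 0.07), all with a limma-voom adjusted p of 0.999. Sema6a had 881, 1022, 939 and 835 CPM in female controls and 747, 836, 831 and 741 CPM in BPA females. The higher one was Plxna3, a receptor for class 3 semaphorins with neuropilins, at 26.8, 27.5, 33.1 and 30.7 CPM in female controls and 39.3, 47.4, 36.8 and 25.4 CPM in BPA females (0.32 ± 0.15). Female BPA 4 was the lowest of all these 8 libraries for Plxna3. In females the precursor list was higher in BPA in 15 of 15 genes (median 0.20), and its part in these values was not tested.

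Whether BPA acted differently in the sexes was tested by the interaction, the BPA effect in females minus that in males. Again 0 members and 0 genes were called (0%), and 3 members had an unadjusted p under 0.05, close to the 4.72% of all genes. Sema5b had the smallest p, lower in BPA males by the values above and, in females, at 36.9, 37.99, 49.7 and 51.9 CPM in controls and 50.5, 61.1, 47.7 and 47.99 CPM in BPA. The difference of its log2 fold changes was 0.59 ± 0.18 (limma-voom adjusted p 0.999). Plxna3 had 0.52 ± 0.21, with male controls at 29.9, 35.2, 35 and 33.3 CPM and BPA males at 27, 35.9, 26.6 and 26.3 CPM. Plxnb3, the last of these 3 members, had 0.21 ± 0.09. Sema4a had 0.36 ± 0.17, with a limma-voom unadjusted p above 0.05. The same interaction was higher in 15 of 15 precursor genes (median 0.54). With male BPA 2 left out, 6 members instead of 3 had such a p, and the share of all tested genes went up too, from 4.72% to 9.29%.

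**Figure D3:**
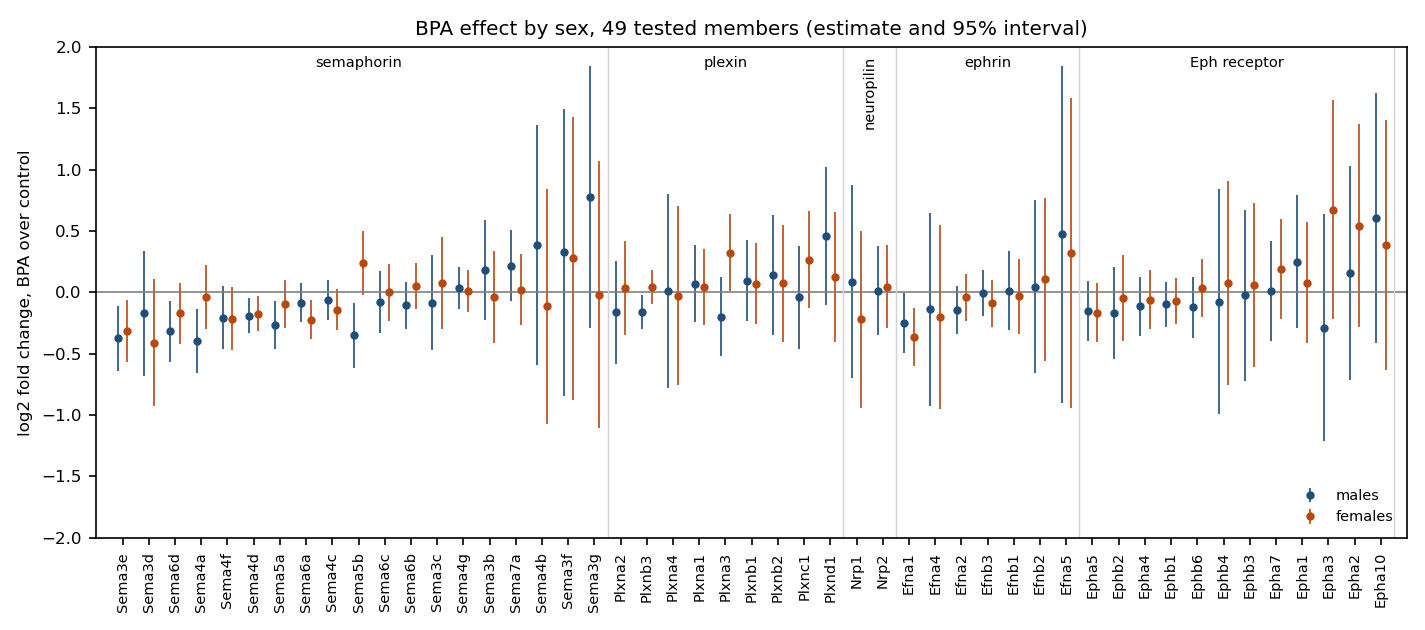
log2 fold change of BPA over control in males (blue) and females (orange) for 49 tested genes by family, with 95% confidence intervals from limma-voom; Efna3 is left off because its interval is far wider. Most intervals include 0, and 17 of the 49 genes, Sema5b and Plxna3 among them, have estimates of opposite sign in the sexes.

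Among the receptors, most estimates were small. Plxnb1, a receptor for Sema4d, had 178 ± 21.2 CPM in controls and 192 ± 42.1 in BPA (SD, n = 8), a log2 fold change of 0.08 ± 0.11 over both sexes with an interval from -0.15 to 0.32. Plxnb2 had 50.7 ± 9.75 and 55.4 ± 16.7 CPM (0.11 ± 0.16), and Plxnb3 928 ± 40.8 and 893 ± 78.5 (-0.06 ± 0.05). Nrp1 had 8.20 ± 2.87 and 7.94 ± 3.64 CPM, and Nrp2 9.95 ± 1.33 and 10.2 ± 1.90. The Nrp1 interval was wide, from -0.60 to 0.47. Male BPA 2 had 16.3 CPM of Nrp1, and the other BPA libraries had between 4.37 and 9.06.

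The most abundant ephrin and Eph genes, Efnb3 and Ephb1, were measured closely. Efnb3 had 998 ± 61.0 CPM in controls and 966 ± 95.1 in BPA, a log2 fold change of -0.05 ± 0.06 with an interval from -0.18 to 0.09. Ephb1, a receptor for B ephrins, had 604 ± 30.7 and 571 ± 58.8 CPM (-0.09 ± 0.06, interval -0.22 to 0.05). Epha4, which binds ephrins of both classes, had 74.2 ± 7.99 and 69.99 ± 8.44 CPM (-0.09 ± 0.08). Efna2 had 31.2 ± 3.35 and 29.2 ± 1.71 CPM and Ephb6 7.66 ± 0.70 and 7.41 ± 0.98 CPM. BPA and control ranges overlapped in each of these.

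Efna3, a lipid-anchored ephrin gene next to Efna1 and Efna4 on chromosome 3, was high in 2 libraries and near 0 in the other 14. Male control 1 had 4290 counts or 118 CPM, and female control 4 had 4573 counts or 108 CPM. The other 14 libraries had 2 to 13 counts, between 0.0578 and 0.473 CPM with a median of 0.219. The lower of the 2 high libraries was 228-fold above the highest of the others. Both are controls of different sex, and without them the 6 remaining controls (0.148 to 0.473 CPM) overlapped the 8 BPA libraries. The log2 fold change of -2.31 ± 1.94 therefore rests on 2 libraries (limma-voom adjusted p 0.847), and the place of Efna3 in the order of levels does too.

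A search chosen after seeing these values, for genes with at least 1 CPM in both libraries and more than 5 times the highest of the other 14, found 1 of 32207 genes, Efna3 itself. Within 50 kb on either side its neighbours had no such step. Efna1 was at 14.9 and 15.7 CPM in the 2 libraries and 10.2 to 17.5 CPM in the others, Adam15 at 85.6 and 111 against 75.6 to 116, and Slc50a1 at 36.3 and 32.6 against 31.1 to 35.8. Efna4 had its highest values there, 1.18 and 1.23 CPM, against 0.413 to 1.12. Gm15998, an antisense gene whose exons overlap 14.1% of the Efna3 exons, was at 0.110 and 0.212 CPM, so its counts did not follow those of Efna3. The libraries were stranded, but the strand setting of the counting is not given in the sources used here.

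The 2 annotated Efna3 starts are shown because the step is at this gene alone. They are chr3:89322890-89323189 and chr3:89321719-89322018 on the minus strand (RefSeq, build GRCm38.p6), with the same motifs in capitals.
Efna3 start 1: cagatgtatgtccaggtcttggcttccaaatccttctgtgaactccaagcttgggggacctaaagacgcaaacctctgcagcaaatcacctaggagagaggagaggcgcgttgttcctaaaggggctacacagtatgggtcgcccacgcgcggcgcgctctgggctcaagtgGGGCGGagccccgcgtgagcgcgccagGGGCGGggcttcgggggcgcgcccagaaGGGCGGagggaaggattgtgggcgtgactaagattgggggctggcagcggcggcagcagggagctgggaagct
Efna3 start 2: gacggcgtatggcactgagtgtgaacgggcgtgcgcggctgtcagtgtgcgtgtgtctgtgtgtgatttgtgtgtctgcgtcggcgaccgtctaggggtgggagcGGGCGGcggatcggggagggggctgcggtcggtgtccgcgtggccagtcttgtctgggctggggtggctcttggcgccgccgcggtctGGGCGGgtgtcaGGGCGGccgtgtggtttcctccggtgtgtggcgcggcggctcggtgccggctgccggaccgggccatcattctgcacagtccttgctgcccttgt
Each window held 3 GC boxes and no match to the other motifs. They were 64.0% and 69.7% G or C, above 79.7% and 89.9% of all promoter windows, with 22 and 34 CpG dinucleotides. The table of counts gives 1 value per gene, so which start the reads of the 2 libraries came from was not tested.

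Epha10, an Eph receptor lacking kinase activity, also varied widely within groups. Male controls had 10.9, 3.35, 4.35 and 12.1 CPM, BPA males 6.71, 12.2, 12.3 and 12.7, female controls 8.22, 2.11, 11.2 and 9.31, and BPA females 12.5, 9.06, 5.97 and 8.90. The 3 lowest libraries were controls of both sexes, and the log2 fold change was 0.50 ± 0.34 over both sexes (limma-voom adjusted p 0.809). Its values overlapped between all 4 groups.

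**Figure D4:**
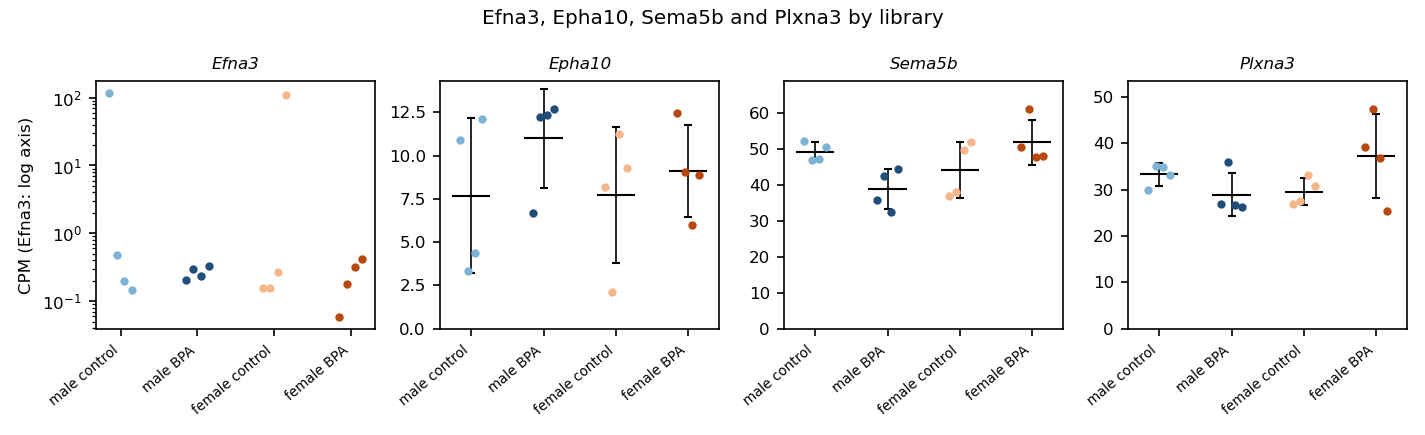
CPM by library and group for Efna3 (log axis), Epha10, Sema5b and Plxna3 (linear axes from 0; line and bar: mean and SD, n = 4). Efna3 is above 100 in male control 1 and female control 4 and below 0.5 elsewhere, and Epha10 spans 2.11 to 12.7.

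Male BPA 2 was an extreme library over all genes, by the chi-square per gene given above, and not only for these families. Of the 50 tested members, 16 had their highest value there and 11 their lowest, against at most 10 and 9 in any other library. The same counts over all tested genes were not made, so these are not shown to be particular to the members. It had 48.7 CPM of Sema4b, 24.7 of Ephb3, 12.6 of Sema3g and 289 of Plxnb1, the highest of all libraries. It also had the lowest Sema4d, 1617 CPM, and the lowest Efna1, 10.2 CPM. Its astrocyte markers were the highest of the series, with Aqp4 at 398 CPM, and their part in these values was not tested. Without this library the count of members with an unadjusted p under 0.05 was 8 over both sexes and 8 in males, as with it, while the share of all genes went from 7.96% to 11.1% in males. In males, 43 of 50 members were then lower in BPA, against 30 with it, and their median log2 fold change was -0.14 in place of -0.08. Over all tested genes the male median was -0.006 without this library and 0.009 with it. With it, 47.5% of all tested genes were lower in BPA males, and without it that share was not computed.

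How the named genes moved with cell makeup from library to library was measured as the correlation of a gene's log2 CPM with a marker list mean over 16 libraries, group means taken out, with 100000 permutations of libraries within groups. Efna3 was left out because its libraries fall into separate clusters. Of 198 pairs of 22 genes and 9 lists, 4 had an adjusted p under 0.05 for Pearson's r. The share of all tested genes that follow these lists was not computed, so the 4 pairs are not shown to be particular to these families. With 1 library left out in turn there were 2 to 9 such pairs: 2 without male control 1, female control 1 or male BPA 2, and 9 without female BPA 4. Efna1 followed the myelinating oligodendrocyte list (r = 0.95, permutation p 1e-05, the smallest they can give, adjusted 0.00198; rho = 0.96, permutation p 4e-05, adjusted 0.00792). Without male BPA 2 and female BPA 4, the libraries farthest from the median of the list, r was 0.92. Sema7a, a lipid-anchored semaphorin, followed the same list (r = 0.82, permutation p 0.00017, adjusted 0.0168; rho = 0.84, permutation p 0.00025, adjusted 0.0248), and r was 0.79 without the same pair of libraries.

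Plxnb2 followed the microglia list (r = 0.80, permutation p 0.00048, adjusted 0.0317; rho = 0.79, permutation p 0.00177, adjusted 0.0572), with r = 0.70 without male control 2 and female BPA 1. Nrp1 followed the astrocyte list (r = 0.89, permutation p 0.00076, adjusted 0.0376; rho = 0.77, permutation p 0.0026, adjusted 0.0572), with r = 0.72 without male BPA 2 and male BPA 4. The last pair and the Plxnb2 pair missed the threshold by rho. With group means kept in, 23 pairs were past it. Efna1 then was not (r = 0.46, permutation p 0.0729, adjusted 0.209), while Sema7a, Plxnb2 and Nrp1 were, each with an adjusted permutation p of 0.00198 (r = 0.85, 0.82 and 0.86). In the myelinating list, means were 10.96 to 11.18 log2 CPM in the 8 controls and 10.9 to 11.3 in the 8 BPA libraries.

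**Figure D5:**
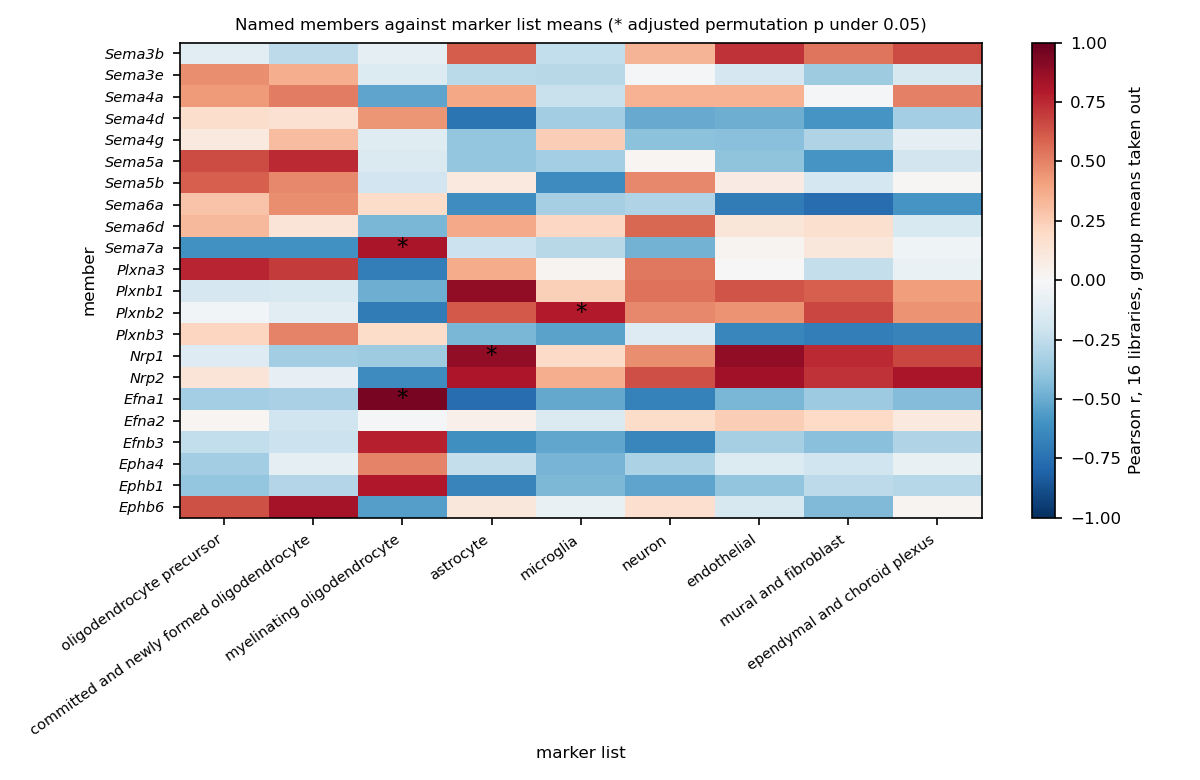
Pearson r over 16 libraries between log2 CPM of 22 named genes (rows) and the mean log2 CPM of 9 marker lists (columns), group means taken out; an asterisk marks an adjusted permutation p under 0.05. Efna1 and Sema7a stand out against the myelinating list, Plxnb2 against microglia and Nrp1 against astrocytes.

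Between females and males, over both exposures, limma-voom called 0 members and 11 genes in all (0.0673%). Sema4g, a transmembrane semaphorin, was the 1 member with an unadjusted p under 0.05 (4.35% of all genes), with a log2 fold change of 0.12 ± 0.06. Among controls it had 87.4 ± 11.7 CPM in males and 95.5 ± 7.65 in females, and after BPA 88.8 ± 2.25 and 96.2 ± 3.90 (SD, n = 4). Sema7a had -0.18 ± 0.10, Sema3b 0.23 ± 0.13 and Plxnb2 0.24 ± 0.16, all with a limma-voom adjusted p of 0.999. All 15 microglia markers were also higher in females (median 0.48), and their part in the Plxnb2 value was not tested.

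The partners of these families were read from 3 further lists. None of their genes was called in any of the 5 comparisons. Over both sexes, 7.69% of all tested genes had an unadjusted p under 0.05, and 4.46% were lower at that p. Of the semaphorin and plexin signalling partners, 31 of 33 were tested and 3 had an unadjusted p under 0.05 over both sexes, all lower in BPA: Mical3, of the MICAL family of enzymes that act on actin downstream of plexins, at 380.4 ± 26.3 CPM in controls and 317 ± 33.6 in BPA (log2 fold change -0.27 ± 0.07, limma-voom adjusted p 0.241), the adaptor Gipc1 (-0.15 ± 0.05) and the kinase Fyn (-0.20 ± 0.09). Fyn, which drives oligodendrocyte morphology, had group means of 916 CPM in male controls and 677 in BPA males, and 859.9 and 893 in females. The median over this list was -0.01.

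Of the ephrin and Eph signalling partners, 28 of 28 were tested and 0 had such a p over both sexes (median 0.03), the smallest adjusted p being 0.668 for Inppl1, a lipid phosphatase. Of the other guidance families (netrins, Slits, their receptors and relatives), 21 of 22 were tested and 5 had an unadjusted p under 0.05, 4 of them lower, with a list median of -0.04. Of all tested genes, 7.69% had such a p and 4.46% were lower at it. Slit3, a secreted ligand of Robo receptors, was at 2.15 ± 0.68 CPM in controls and 1.04 ± 0.43 in BPA (log2 fold change -1.08 ± 0.26, limma-voom adjusted p 0.242). Slit2 had -0.27 ± 0.09 and the netrin receptor gene Unc5c -0.20 ± 0.07. Slit3 is a low transcript here, with 2.14, 0.946, 2.99 and 2.01 CPM in male controls and 0.959, 1.10, 1.01 and 0.380 CPM in BPA males. Female controls had 2.31, 3.06, 1.90 and 1.82 CPM and BPA females 1.94, 0.942, 0.974 and 1.06 CPM, so male control 2 and female BPA 1 lay on the far side of their groups.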

How the data were processed

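RNA of O4-sorted cells was sequenced as 16 stranded mRNA libraries, per the labels. The submitters' processing notes name these tools of the authors: HTSeq 0.6.1p1 and STAR 2.5.3a, with bcl2fastq 2.20.0.422, DESeq2 1.16.1 and the build mm39. The deposited table gives raw counts, normalized values and normalized values per kb of median transcript length, per the labels and the file headers. The normalized values equalled raw counts over size factors that a median-of-ratios calculation returned. Tests and CPM used the raw counts, and levels between genes the deposited values per kb.

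A quasi-likelihood test of the counts had been meant as the main test. The layout of the table did not let its columns be checked as counts, so edgeR was not used, and limma-voom took its place. Genes were kept by the filterByExpr rule (minimum count 10, minimum total 15), which left 16339 genes holding 99.947% of counts. limma 3.58.1 in R 4.3.3 fitted a mean for each of the 4 groups over all 16 libraries, with TMM scaling and robust empirical Bayes. Tests were two-sided, with Benjamini-Hochberg adjustment over all tested genes and a threshold of 0.05. log2 CPM had a prior count of 2. The fit was tested on simulated data. Correlations were computed with Python 3.11.15.

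Named by rule were, in each comparison, the 4 members with the smallest p and a mean of at least 1 CPM. The rule also took the 3 with the highest level per kb in each family, and both neuropilins. Of each partner list it took up to 3 genes per comparison. Only those of the comparison over both sexes are given here. Other members and the neighbours of Efna3 were named after their values were seen. The members and lists were chosen with earlier results of these data known. Alternatives were another scaling, other filters, a replicate block, only the groups compared, and leaving out libraries.

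Total counts per library ranged from 23603816 to 42575326, and floors cover counting error only. Exons of 14 members overlap another gene, by at most 14.1% of their length, and 11 of these overlap one on the opposite strand. Same-numbered libraries did not deviate together (24 pairs, median r 0.02, range -0.24 to 0.23), so numbers were not used as pairs.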

Additional observations from a re-analysis of the deposited data

Results flagged for a closer look

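Each named gene was examined for a single library far from the other 3 of its group, by Dixon's 95% criterion for groups of 4. Of 92 groups, 9 had one. Chance gives about 1 in 20, but the genes were chosen from these same values, so the count is not a test. Efna3 was named for its mean level in controls, which rests on the 2 libraries flagged for it. The share over all genes was not computed. Efna3 was highest in male control 1, at 118 CPM against 0.473 for the next library of its group, and in female control 4, at 108 CPM against 0.272. Male BPA 2 was highest of its group for Plxnb2 (79.9 CPM, next 44.1), Plxna3 (35.9 CPM, next 27) and Sema3b (2.94 CPM, next 1.95). Its astrocyte list mean was also the highest of the series, and the part of that in these values was not tested. The lowest of their groups were Sema6d in female BPA 4 (232 CPM, next 263), Sema4g in female BPA 3 (90.4 CPM, next 97.5), Efna2 in male BPA 1 (26.04 CPM, next 29.7) and Nrp1 in male control 3 (4.88 CPM, next 7.65).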

How the results depend on the processing

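In every alternative run, 0 members were called in all 5 comparisons (107 results). Over all genes, alternatives called 0 to 5 over both sexes (3 in the reported fit), 0 to 4 in males (1), 0 to 2 in females (0), 0 to 3 for the interaction (0) and 9 to 14 for sex (11). The number of members with an unadjusted p under 0.05 over both sexes was 6 to 10 with 1 library left out in turn, 5 to 10 in males, 1 to 7 in females, 2 to 6 for the interaction and 0 to 8 for sex. In the same order, the share of all tested genes with such a p was 6.21% to 8.61%, 6% to 11.1%, 3.27% to 5.75%, 3.37% to 9.29% and 3.12% to 9.74%. The number of members was 5 in males without male control 4 (7.29% of all genes). In females it was 1 without female control 2 (4.35%) and 3 without female BPA 1 (3.27%). Without male BPA 2 it was 6 for the interaction and 8 for sex, where 9.29% and 9.74% of all genes had such a p, against 4.72% and 4.35% with it. For sex it was 2 without male control 3, and 0 without any 1 of male controls 1 and 2, female control 2, BPA males 1, 3 and 4, and BPA females 1 and 2. With both male BPA 2 and female BPA 1 left out, an alternative chosen after seeing the data, it was 3 in females and 5 for sex. Of 16420 genes, 678 and 1135 then had such a p. For sex the number of members was 0 with median-of-ratios size factors (713 of 16339 genes) and 0 with no filter on low counts (1489 of 32207 genes). With the replicate block, in the paired fit, the counts were 8, 8, 5, 2 and 1, and no member's call changed. Over all 16339 genes the counts were 1235, 1295, 716, 764 and 771. The log2 fold changes of the members named for their p kept their sign in all 428 refits. These members were picked for their p in the same data and the refits share most libraries, so a kept sign says little. Over both sexes the limma-voom unadjusted p of Sema3e, Efna1, Sema4d and Sema6d stayed under 0.05 in 21 of 21 refits. For the interaction it was under 0.05 in 21 of 21 for Sema5b and Plxna3, in 11 for Plxnb3 and in 7 for Sema4a. The Plxnb2 and Nrp1 relations were past the threshold in 8 of 16 fits with 1 library left out each (largest adjusted p 0.119 and 0.229), Sema7a missed it without male BPA 2 (0.0601), and Efna1 kept it in all 16 (r from 0.93 to 0.96). The cause of these changes was not tested. The planned DESeq2 fit was not run, and edgeR was not used. Of 42 ranks of levels under another length or scale, 25 moved. For 45 of the 50 members, and for 15068 of all 16339 tested genes, the interval over both sexes lay within a 2-fold change. In the other members a change of that size was not excluded.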
